A study of Mus musculus with 16 samples.

Results

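Sympathetic neuron genes were examined in the aorta of mice with chronic kidney disease: Th, Ddc, Dbh, Slc18a2, Slc6a2, Prph, Ngfr and Brinp1, 8 of the 54532 genes in the count table. They were selected on high but uneven levels among mice of the 5/6 Nx-HPi-Lp group, so every value of that group served to select them and is given here as a description without a test. All 16 mice were male C57BL/6J, 12 weeks old at surgery, and 4 mice per group each gave 1 bulk RNA-seq library of the aorta. Sham mice had the surgery without loss of kidney tissue and ate the HPi-Lp diet, with 2% phosphorus but only 2.5% protein. The other 3 groups underwent 5/6 nephrectomy (5/6 Nx), removal of most kidney mass, and after 2 weeks received the HPi-Lp diet, the HPi-Hp diet of 2% phosphorus and 18% protein, or the LPi-Lp diet of 0.3% phosphorus and 2.5% protein. Diets lasted 30 days by the labels and 4 weeks by the published methods. No group had sham surgery with either other diet, so surgery and diet cannot be told apart in comparisons of the HPi-Hp or LPi-Lp mice with Sham.

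Sympathetic neurons have their cell bodies in ganglia beside the aorta and along the spine and send noradrenergic axons to the outer layer of arteries. They make noradrenaline from tyrosine through TH, DDC and DBH, load it into vesicles through VMAT2 (Slc18a2) and take it back up through the noradrenaline transporter (Slc6a2). Their survival depends on neurotrophins made by the tissues they innervate, which p75NTR (Ngfr) helps to sense. Most mRNA of a neuron lies in its cell body, and in a bulk sample fewer cells of a type and less RNA per cell cannot be told apart.

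The libraries held 13659525 to 57276915 counted reads, and the deepest were replicates 2 and 3 of the 5/6 Nx-HPi-Lp group. The smooth muscle marker sum was 7547 to 9601 FPKM, a read level per length of gene and depth of library, in Sham, 2489 to 6107 in LPi-Lp, 1848 to 8303 in HPi-Hp and 746 to 1740 in HPi-Lp mice, and the endothelial sum was 68.7 to 120 FPKM in all 16, so the labelled tissue was detected throughout. The mitochondrial share of counts was 4.18 to 6.34% in Sham and 9.50 to 29.0% in the 5/6 Nx mice. The summed adipocyte markers were 159 to 445 FPKM in Sham and 511 to 7609 in the 5/6 Nx mice. Both measures separated the 5/6 Nx mice from Sham without overlap, and their part in the gene differences from Sham was not tested.

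The promoters of Th, Dbh and Brinp1 are shown because the first pair encode enzymes of noradrenaline synthesis, the rate-limiting and the last, whose levels moved together across mice, while Brinp1 did not follow them. Each line gives the 250 bases before the RefSeq transcription start (GRCm38.p6), 5′ to 3′ on the gene's strand, with capitals marking matches to the motifs searched. The windows are chr7:142899996-142900245 (minus strand) for Th, chr2:27165257-27165506 (plus strand) for Dbh and chr4:68954398-68954647 (minus strand) for Brinp1.
Th: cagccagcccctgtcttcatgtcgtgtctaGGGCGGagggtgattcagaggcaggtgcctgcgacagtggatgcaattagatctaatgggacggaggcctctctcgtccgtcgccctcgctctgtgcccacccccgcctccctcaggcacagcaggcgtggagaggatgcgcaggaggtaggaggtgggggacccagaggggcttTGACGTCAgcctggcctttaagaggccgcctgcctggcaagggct
Dbh: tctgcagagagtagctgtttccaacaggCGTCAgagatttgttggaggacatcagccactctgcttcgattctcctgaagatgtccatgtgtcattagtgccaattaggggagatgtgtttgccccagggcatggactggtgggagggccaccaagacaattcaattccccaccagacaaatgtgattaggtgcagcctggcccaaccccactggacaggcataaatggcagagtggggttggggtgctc
Brinp1: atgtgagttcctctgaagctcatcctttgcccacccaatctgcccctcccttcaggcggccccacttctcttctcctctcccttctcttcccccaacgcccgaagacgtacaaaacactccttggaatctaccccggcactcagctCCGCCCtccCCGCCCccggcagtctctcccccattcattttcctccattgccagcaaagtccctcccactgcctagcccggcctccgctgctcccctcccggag
In windows of 300 bases, the full cAMP response element TGACGTCA occurred in 1.79% of 32851 promoters and in those of Th (position -45 from the start) and Slc18a2 (position -4), among 7 members with a RefSeq promoter entry. Its shorter form TGACG, searched on both strands and contained in the full element, occurred in 20.8% of promoters and also in that of Dbh at position -222. The GC box GGGCGG occurred in 35.7% of promoters and in those of Brinp1, Ngfr, Prph, Slc18a2 and Th. The TATA box TATAAA occurred in 13.6% of promoters, in that of Prph (position -31) and, only as its reverse complement, in that of Ddc (position -68). The GATA motif AGATAA occurred in 11.2% and, only as its reverse complement, in that of Slc18a2. All motifs were searched on both strands, and the GC box matches of Brinp1 were also of the reverse complement only. The HAND2 E-box CATCTG (17.2% of promoters) and the homeodomain motif TAATTA (5.29%) had no match in the 7 windows. A match is only a description of the letters.

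Th encodes tyrosine hydroxylase, the rate-limiting enzyme of catecholamine synthesis (ENSMUSG00000000214, chromosome 7, 142892752 to 142931128, minus strand, mm10). Its level was 0.1555, 0, 0.0182 and 0 FPKM in Sham, 0.118, 0, 2.90 and 5.77 in LPi-Lp, 0.429, 4.67, 0.396 and 7.77 in HPi-Hp, and 41.1, 0, 13.6 and 38.0 FPKM in HPi-Lp replicates 1 to 4. LPi-Lp replicates 1 and 2 and HPi-Lp replicate 2 overlapped Sham, whereas every HPi-Hp mouse lay above it. HPi-Lp replicate 2 had 0 Th counts in the deepest library of the series, where 3 counts, the limit that a count of 0 allows, equal 0.0227 FPKM. The group means were 0.0434 ± 0.0752, 2.20 ± 2.73, 3.32 ± 3.58 and 23.2 ± 19.8 FPKM (SD, n = 4), in the order Sham, LPi-Lp, HPi-Hp and HPi-Lp. That limit covers counting error only.

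**Figure D1:**
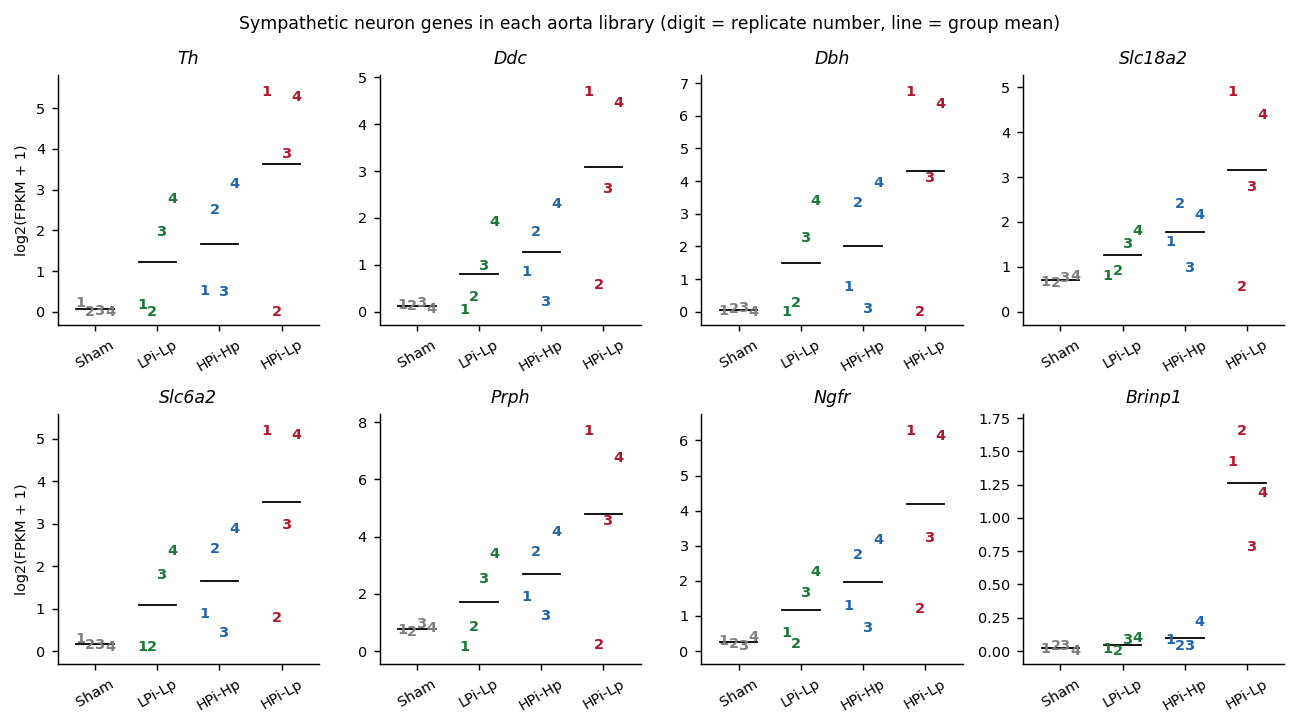
Level of each of the 8 genes, as log2(FPKM + 1), in each of the 16 aorta libraries by group, with the replicate number as the plotting symbol and a line at the group mean of the log2 values. Sham digits are low and tight, those of each 5/6 Nx group are spread widely, and HPi-Lp replicate 2 is at 0 for Th and Dbh but at 2.14 FPKM, the highest, for Brinp1.

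Ddc encodes aromatic L-amino acid decarboxylase, which makes dopamine from DOPA (ENSMUSG00000020182, chromosome 11, 11814101 to 11898144, minus strand). It measured 0.0989, 0.0843, 0.135 and 0.0429 FPKM in Sham, 0.0249, 0.243, 0.974 and 2.75 in LPi-Lp, 0.802, 2.26, 0.157 and 3.90 in HPi-Hp, and 24.7, 0.494, 5.12 and 21.0 FPKM in HPi-Lp mice. All mice after surgery except LPi-Lp replicate 1 exceeded the highest Sham mouse. For HPi-Hp replicate 3, with 9 counts, that margin was too small to read. HPi-Lp replicate 2 was again the lowest of its group but, unlike for Th, stood above all Sham mice, with 123 counts. The means were 0.0903 ± 0.0381, 0.999 ± 1.24, 1.78 ± 1.67 and 12.8 ± 11.8 FPKM (SD, n = 4) in Sham, LPi-Lp, HPi-Hp and HPi-Lp mice.

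Dbh encodes dopamine beta-hydroxylase, which converts dopamine to noradrenaline inside vesicles and marks noradrenergic cells (ENSMUSG00000000889, chromosome 2, 27165233 to 27183200, plus strand). It measured 0.0137, 0.0621, 0.0799 and 0 FPKM in Sham, 0, 0.213, 3.80 and 9.49 in LPi-Lp, 0.694, 8.95, 0.0579 and 14.3 in HPi-Hp, and 105, 0, 16.2 and 80.8 FPKM in HPi-Lp mice. The HPi-Lp group held both the highest level of the series and a library with no read, in which 3 counts equal 0.0200 FPKM. Each 5/6 Nx group had at least 1 mouse within the Sham range: LPi-Lp replicate 1, HPi-Hp replicate 3 and HPi-Lp replicate 2. All 4 Sham libraries together held 10 Dbh counts. The means were 0.0389 ± 0.0382, 3.38 ± 4.43, 6.01 ± 6.86 and 50.4 ± 50.2 FPKM (SD, n = 4) in the same group order.

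Slc18a2 encodes the vesicular monoamine transporter VMAT2, which also serves mast cells (ENSMUSG00000025094, chromosome 19, 59260878 to 59296012, plus strand). It measured 0.590, 0.560, 0.679 and 0.745 FPKM in Sham, 0.746, 0.888, 1.86 and 2.49 in LPi-Lp, 1.92, 4.26, 0.964 and 3.43 in HPi-Hp, and 28.8, 0.461, 5.87 and 20.0 FPKM in HPi-Lp mice. Sham levels were tight, LPi-Lp replicate 1 exceeded the highest of them by a margin too small to read, and HPi-Lp replicate 2 was below the lowest of them. Summed mast cell markers were 5.71 to 27.8 FPKM in Sham, 32.1 to 151 in LPi-Lp, 58.1 to 333 in HPi-Hp and 128 to 145 FPKM in HPi-Lp mice, and their part in the Slc18a2 result was not tested. Its mean was 0.643 ± 0.0842 FPKM in Sham and 13.8 ± 13.0 in HPi-Lp mice (SD, n = 4), with 1.495 ± 0.826 in LPi-Lp and 2.65 ± 1.48 in HPi-Hp mice.

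Slc6a2 encodes the noradrenaline transporter, which returns released noradrenaline to the axon (ENSMUSG00000055368, chromosome 8, 92960079 to 93001667, plus strand). It measured 0.222, 0.106, 0.110 and 0.0608 FPKM in Sham, 0.0707, 0.0608, 2.46 and 4.11 in LPi-Lp, 0.840, 4.26, 0.335 and 6.32 in HPi-Hp, and 35.2, 0.723, 6.82 and 32.9 FPKM in HPi-Lp mice. Every HPi-Hp and HPi-Lp mouse lay above Sham, and the LPi-Lp mice fell into a pair within the Sham range and a pair above it. HPi-Lp replicate 2 held 254 Slc6a2 counts beside 0 for Th and Dbh. The means were 0.125 ± 0.0686, 1.68 ± 1.98, 2.94 ± 2.85 and 18.9 ± 17.7 FPKM (SD, n = 4) in the same group order.

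Prph encodes peripherin, an intermediate filament of peripheral neurons (ENSMUSG00000023484, chromosome 15, 99055174 to 99058978, plus strand). It measured 0.662, 0.585, 0.904 and 0.766 FPKM in Sham, 0.111, 0.797, 4.72 and 9.62 in LPi-Lp, 2.73, 9.94, 1.36 and 17.1 in HPi-Hp, and 204, 0.161, 22.4 and 106 FPKM in HPi-Lp mice. Of the 8 genes Prph reached the highest FPKM in any library, in HPi-Lp replicate 1. LPi-Lp replicate 1 and HPi-Lp replicate 2 were below every Sham mouse, and all HPi-Hp mice were above. The means were 0.729 ± 0.138, 3.81 ± 4.37, 7.78 ± 7.25 and 83.1 ± 92.5 FPKM (SD, n = 4).

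Ngfr encodes the neurotrophin receptor p75NTR, present on sympathetic neurons and also on Schwann and satellite glia (ENSMUSG00000000120, chromosome 11, 95568818 to 95587735, minus strand). It measured 0.224, 0.158, 0.0999 and 0.322 FPKM in Sham, 0.436, 0.148, 2.14 and 3.81 in LPi-Lp, 1.43, 5.71, 0.588 and 7.98 in HPi-Hp, and 75.5, 1.28, 8.32 and 68.3 FPKM in HPi-Lp mice. Each mouse after surgery except LPi-Lp replicate 2 exceeded the Sham range. The means were 0.201 ± 0.0953, 1.63 ± 1.70, 3.93 ± 3.51 and 38.4 ± 39.0 FPKM (SD, n = 4). For Th, Ddc, Dbh, Slc18a2, Slc6a2, Prph and Ngfr, the order of group medians was HPi-Lp, HPi-Hp, LPi-Lp and Sham from high to low for each.

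**Figure D2:**
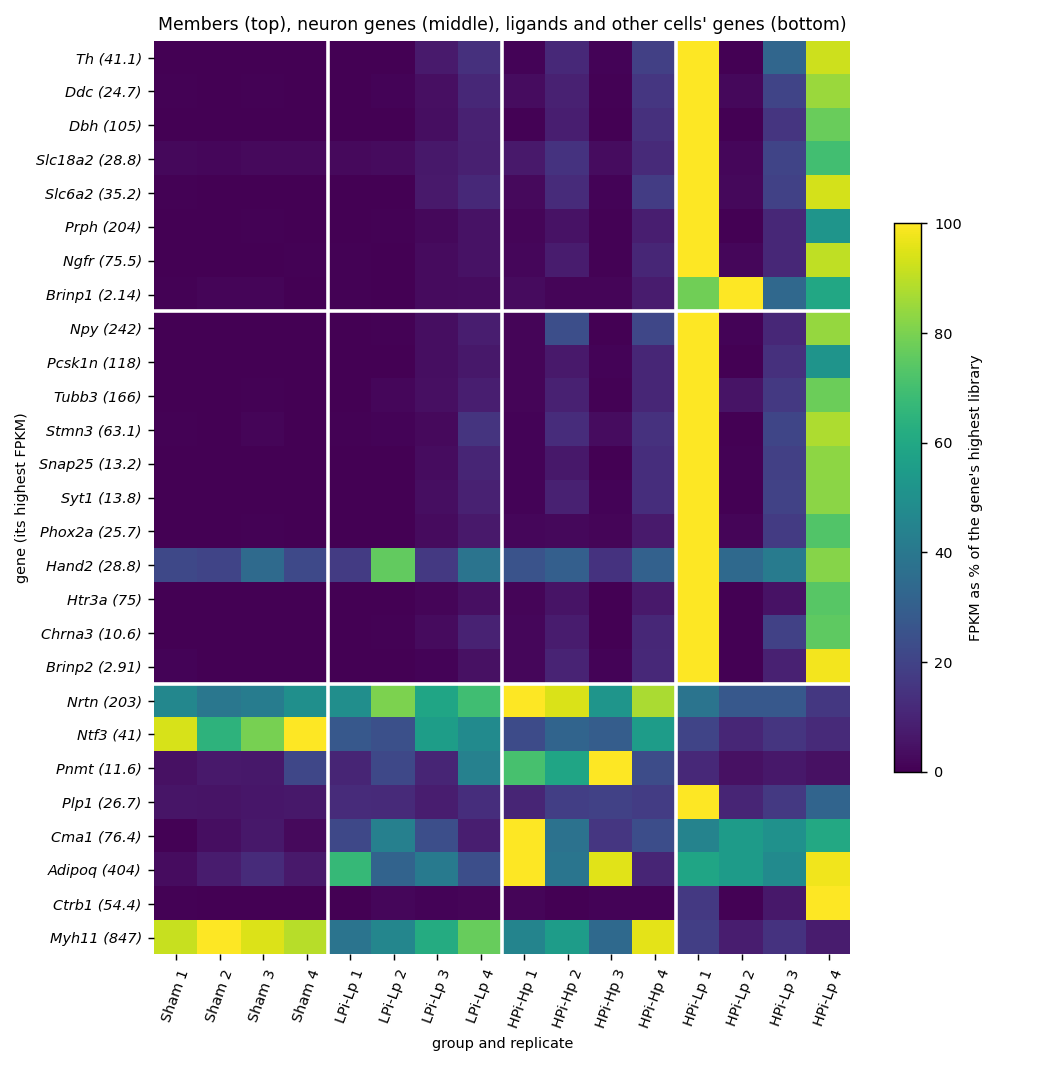
FPKM of the 8 genes (top), other neuron genes (middle) and ligands or genes of other cells (bottom) in each of the 16 libraries, as a percent of the gene's highest library, whose FPKM stands beside the gene name. The neuron rows are brightest in HPi-Lp replicates 1 and 4 and dim in Sham, HPi-Lp replicate 2 is dim in all the top rows except Brinp1, where it is the brightest at 2.14 FPKM.

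Brinp1 encodes a neural protein first described as induced by bone morphogenetic protein and retinoic acid in neurons (ENSMUSG00000028351, chromosome 4, 68761514 to 68954397, minus strand). It measured 0.0119, 0.0271, 0.0278 and 0 FPKM in Sham, 0.00900, 0, 0.0596 and 0.0685 in LPi-Lp, 0.0605, 0.0275, 0.0252 and 0.163 in HPi-Hp, and 1.67, 2.14, 0.723 and 1.28 FPKM in HPi-Lp mice. All 4 HPi-Lp mice lay above the other 12 mice, and the highest was replicate 2, the mouse with no Th or Dbh read. Counts were 160, 738, 202 and 122 in the HPi-Lp libraries and at most 19 in any other, and the group sums were 10 in Sham, 15 in LPi-Lp, 30 in HPi-Hp and 1222 in HPi-Lp mice. The means were 0.0167 ± 0.0133, 0.0343 ± 0.0348, 0.0691 ± 0.0648 and 1.45 ± 0.600 FPKM (SD, n = 4).

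The paralog Brinp2 had the other pattern. It measured 2.91, 0, 0.267 and 2.86 FPKM in the HPi-Lp mice, with 0 in replicate 2, and at most 0.339 FPKM in the other 12 libraries. Brinp3 did not exceed 0.0925 FPKM, or 10 counts, in any library. Brinp1 and Brinp2 differed in which HPi-Lp mouse was lowest, replicate 3 for Brinp1 and replicate 2 for Brinp2.

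HPi-Lp replicate 2 was read gene by gene because it parts the 8 genes. Slc6a2, Ngfr, Ddc and Brinp1 lay above the highest Sham mouse in that library, Slc18a2 and Prph lay below the lowest, and Th and Dbh had no read. Tubb3, a neuronal tubulin, was at 8.97 FPKM there against at most 0.921 in Sham, while Stmn3, a neuronal stathmin, was at 0. This library is counted in every group value given here.

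The first comparison asked whether the genes differed after 5/6 Nx on the HPi-Hp diet from Sham, without the HPi-Lp mice that selected them. High HPi-Lp levels are high relative to other groups, and earlier results were known. Low Sham levels may thus have taken part in the choice, so the p-values against Sham cannot be taken as independent of it. A gene was called where the edgeR quasi-likelihood test gave a Benjamini-Hochberg adjusted p of at most 0.05 over all genes tested and a change of at least 2-fold. Called higher were 6 of the 8 genes, and none lower, with 9.41% of the 15882 tested genes called higher and 2.75% lower. Dbh and Brinp1 had too few counts to be tested, and Th, with no Sham library over the minimum count, entered the test through the HPi-Hp libraries alone. Th therefore had to differ: it is counted among the 6 but its call is no evidence, and the share of tested members called is not read. Ddc, with 1 Sham library over the minimum count, also entered through the HPi-Hp libraries, so its call is only described.

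In edgeR log2 fold changes ± SE (n = 4 against 4), Ngfr rose by 4.25 ± 0.78 (adjusted p = 0.00956) and Slc6a2 by 4.53 ± 0.87 (adjusted p = 0.00978). Slc18a2 rose by 2.02 ± 0.40, or 4.07-fold (adjusted p = 0.0100), and Prph by 3.40 ± 0.69, or 10.6-fold (adjusted p = 0.0105). The fitted value of Th was 6.10 ± 1.28, given without a p. Slc18a2 and Prph were over the minimum count in all 8 libraries and had the smallest changes of the 6, while 3 Sham libraries were over it for Slc6a2 and Ngfr and 1 for Ddc. The calls of Slc18a2 and Prph were lost in a joint fit of all 16 libraries, and those of Th, Ddc and Slc6a2 with limma on log2(FPKM + 1). In counts, Dbh gave 35, 284, 2 and 726 in HPi-Hp and 1, 4, 5 and 0 in Sham libraries, so 3 of 4 HPi-Hp mice stood above Sham. The summed Schwann and satellite glial markers were also higher than in Sham, at 12.5 to 15.8 FPKM in Sham and 28.1 to 60.8 in HPi-Hp mice. Of these markers, 7 of 8 tested were called higher, beside 9.41% of all genes. Among the HPi-Hp mice the sum did not follow these genes: it was highest in replicate 3, where Ngfr was lowest at 0.588 FPKM. The part of glia in the result was not tested.

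The second comparison set the LPi-Lp mice against Sham, using the same Sham libraries as the first. Called higher were 4 of the 8 genes, beside 8.79% of 16071 genes called higher and 2.08% lower. By edgeR's quasi-likelihood test Ngfr rose by 3.03 ± 0.86 on the log2 scale (adjusted p = 0.0248) and Slc18a2 by 1.24 ± 0.38 (adjusted p = 0.0323). Slc6a2 rose by 3.76 ± 1.18 in the same test (adjusted p = 0.0360). Libraries over the minimum count in Sham and LPi-Lp numbered 3 and 4 for Ngfr, 4 and 4 for Slc18a2 and 3 and 2 for Slc6a2. Ddc, fitted at 3.49 ± 1.04, had only 2 Sham libraries over it beside 3 LPi-Lp libraries, so its call is only described. Prph did not pass, at 2.41 ± 0.93 (adjusted p = 0.0740), and Th, Dbh and Brinp1 had too few counts to be tested. The count moved between 0 and 6 when 1 mouse was left out, which also leaves fewer mice to test. It was 0 without LPi-Lp replicate 3 or 4, 1 without Sham replicate 1, 2 or 3, and 2 without Sham replicate 4. It was also 0 in the fit of all 16 libraries and with limma on either FPKM scale. Glial markers summed to 19.1 to 41.3 FPKM in the LPi-Lp mice, above Sham, with 6 of 8 tested called higher, and their part in the result was not tested.

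**Figure D3:**
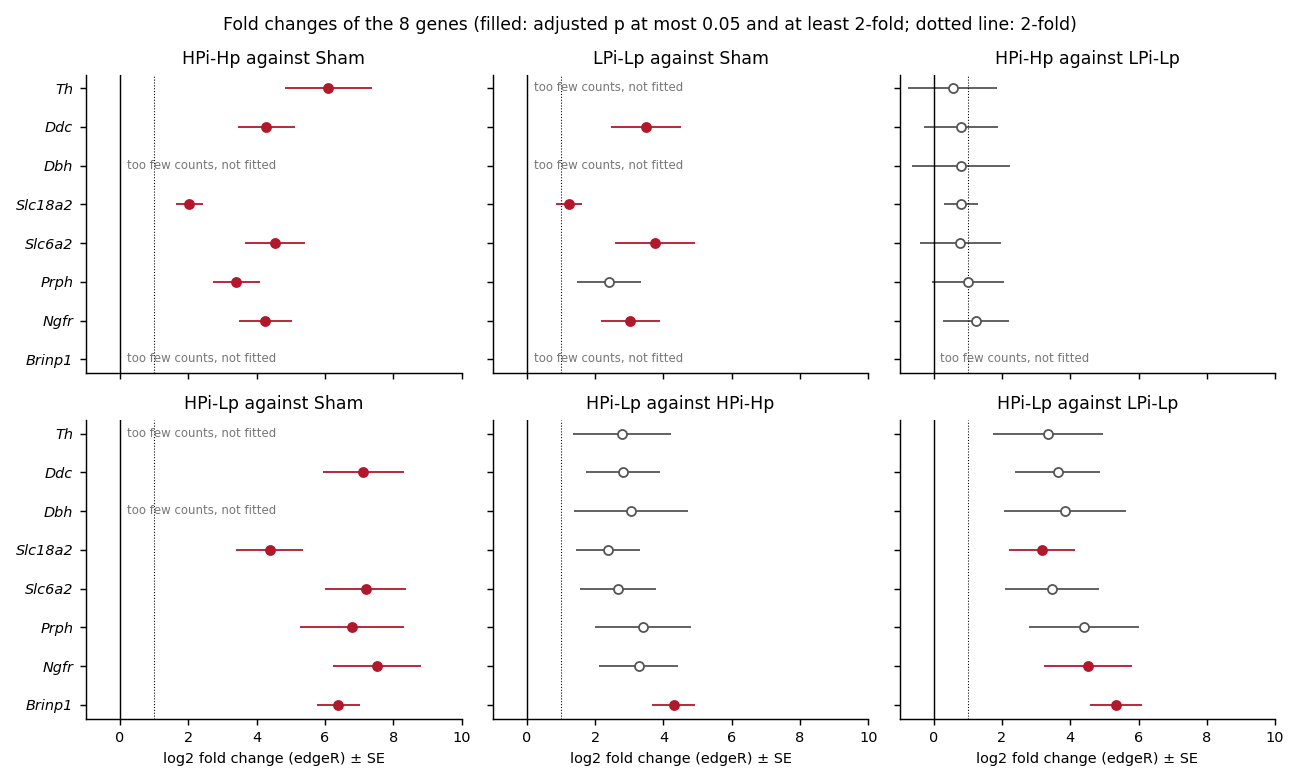
edgeR log2 fold change with its SE for each gene in 6 panels, 3 comparisons that leave out the HPi-Lp mice and 3 that include them. Filled points mark genes that met the call rule, and a dotted line marks 2-fold. Filled points are only a description for Th and Ddc in HPi-Hp against Sham, for Ddc in LPi-Lp against Sham, and in the HPi-Lp panels. The values against Sham are positive throughout, from 1.24 for Slc18a2 in the LPi-Lp mice to 7.52 for Ngfr in the HPi-Lp mice, and the error bars are long where mice of a group differ most.

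The third comparison asked whether the HPi-Hp and LPi-Lp diets gave different levels after the same surgery. None of the 7 genes tested was called, beside 0% of 15850 genes in either direction. Log2 differences, HPi-Hp minus LPi-Lp, ran from 0.57 ± 1.30 for Th (adjusted p = 0.910) to 1.24 ± 0.96 for Ngfr (adjusted p = 0.676) in edgeR's quasi-likelihood test. The smallest SE was 0.51, for Slc18a2, and the mice of each group overlapped for every gene, so these values do not show equal levels. No member had an unadjusted p under 0.05, 1420 of all genes did, and DESeq2 called 79 genes over the table and no member. Brinp1 was not tested.

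Against Sham, the HPi-Lp group gave log2 fold changes of 7.12 ± 1.19 for Ddc, 4.38 ± 0.98 for Slc18a2, 7.20 ± 1.18 for Slc6a2, 6.80 ± 1.52 for Prph, 7.52 ± 1.29 for Ngfr and 6.39 ± 0.63 for Brinp1. By the call rule, applied here only to describe values that had already selected the genes, all 6 counted as higher, beside 15.0% of 16513 genes higher and 7.18% lower, and nothing is read from that count. Brinp1 had the smallest SE of the 6. Th and Dbh could not be fitted, because replicate 2 was at 0 and fewer than 4 HPi-Lp libraries passed the minimum count.

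Against the HPi-Hp group, again as a description, the log2 difference of Brinp1 was 4.30 ± 0.63 and it alone passed the call rule, beside 5.01% of genes higher and 3.11% lower. The other 7 genes differed by 2.37 ± 0.93 for Slc18a2 to 3.40 ± 1.40 for Prph, with Dbh at 3.05 ± 1.66 and Th at 2.79 ± 1.43. Without HPi-Lp replicate 2 the count was 5. Against the LPi-Lp group the count was 3, with Brinp1 at 5.35 ± 0.76, Ngfr at 4.51 ± 1.30 and Slc18a2 at 3.17 ± 0.97, beside 7.90% of genes higher and 3.98% lower. Without HPi-Lp replicate 2 that count was 5, and it was 1 without HPi-Lp replicate 1 or 4 or LPi-Lp replicate 1, 2 or 3. Brinp1 was over the minimum count in all 4 HPi-Lp libraries, in 1 HPi-Hp library and in none of Sham or LPi-Lp, so it entered these fits through the group that selected it. The 3 comparisons share the same HPi-Lp libraries.

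The proportions of the genes to each other were then read in the 7 libraries with at least 100 Dbh counts: LPi-Lp replicates 3 and 4, HPi-Hp replicates 2 and 4, and HPi-Lp replicates 1, 3 and 4. Dbh itself spanned 3.80 to 105 FPKM over these mice. Ddc was 0.237 to 0.315 of the Dbh FPKM, a 1.33-fold range, Prph 1.01 to 1.95 of it, Slc6a2 0.337 to 0.647, Slc18a2 0.240 to 0.489, Ngfr 0.401 to 0.846 and Th 0.393 to 0.838, which is a 2.13-fold range. Ratios of these 6 genes thus moved far less than the levels did in these 7 libraries. The limit left out HPi-Lp replicate 2, which broke these proportions with 0 Dbh counts beside 254 for Slc6a2, 247 for Ngfr and 123 for Ddc. The Brinp1 ratio ran from 0.00307 to 0.0446, a 14.5-fold range, although its counts outside the HPi-Lp group were at most 19.

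Some genes outside the 8 kept similar proportions in the same mice, and others ranged more widely. Tubb3 was 1.24 to 1.71 of the Dbh FPKM, Gap43 (a growth cone protein) 0.392 to 0.554 and Pcsk1n (a granule protein) 0.757 to 1.13. Npy, the sympathetic co-transmitter neuropeptide Y, ranged more widely at 1.68 to 6.51, highest in HPi-Hp replicate 2. The transcription factor gene Phox2a ranged 0.0606 to 0.275, lowest in that same mouse, and the serotonin receptor gene Htr3a 0.224 to 0.717. These ratios describe the libraries and share the Dbh value as denominator.

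**Figure D4:**
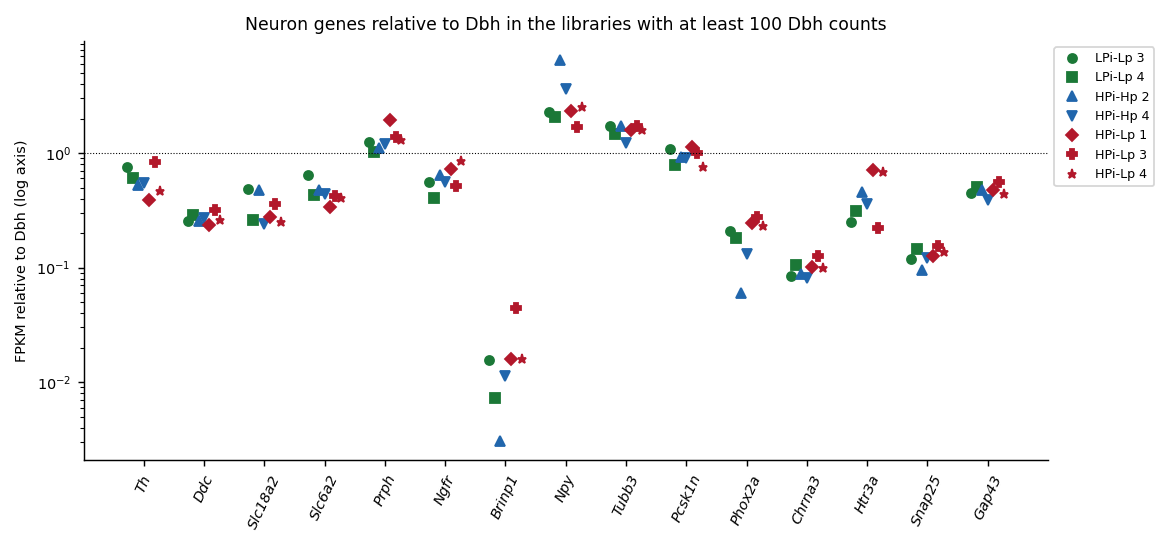
FPKM of each gene divided by that of Dbh, on a log axis, in the 7 libraries with at least 100 Dbh counts, for 7 of the 8 genes and 8 other neuron genes, with 1 symbol per mouse. Points of Ddc lie within a 1.33-fold range and those of Brinp1 spread over a 14.5-fold range.

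Across all 16 libraries, with each group's mean removed from log2(CPM + 1), each of the 7 genes other than Brinp1 had a Pearson r of at least 0.944 with the mean of the other 7 members, and Brinp1 had 0.08. Among the genes most like the mean of the 8 were Snap25 (r = 0.996) and Rab3c (0.994), which serve vesicle release, Slc10a4 (0.992), a vesicle transporter of aminergic neurons, and Syt1 (0.989), the calcium sensor of release. Singly, Th was nearest to Syt1 (0.993), Ddc to Snap25 (0.986), Dbh to Rab3c (0.994), Slc18a2 to Ppp2r2c (0.991), Slc6a2 to Snap25 (0.969), Prph to Pcsk1n (0.991), Ngfr to the neurofilament gene Nefm (0.987) and Brinp1 to Dstyk (0.907). These r values describe 16 points that share library and depth, and carry no test.

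Of the other neuronal genes in 6 lists, 72 in all, 16 were called higher and 2 lower of 45 tested in HPi-Hp against Sham, beside 9.41% and 2.75% of all genes, and 10 higher and 2 lower of 42 in LPi-Lp against Sham, beside 8.79% and 2.08%. No Sham library was over the minimum count for 5 of the 16 and 1 of the 10, which were tested only because the other group was high, so neither count is read as support and no call of those genes is given as a result. None of 58 was called between HPi-Hp and LPi-Lp. In the HPi-Lp mice the counts were 25 higher and 4 lower of 49 against Sham (15.0% and 7.18% of all genes), 7 and 5 of 63 against HPi-Hp (5.01% and 3.11%), and 14 and 5 of 63 against LPi-Lp (7.90% and 3.98%), as a description. The same shares of all genes are the background of each list that follows. Leaving out 1 library moved the higher counts to 14 to 23 and 8 to 13 in the comparisons of HPi-Hp and LPi-Lp with Sham. Without HPi-Lp replicate 2 the 3 HPi-Lp counts were 43, 16 and 36. Against Sham the count was 39 without Sham replicate 3, and 23 to 37 without any other. Against HPi-Hp it was 2 without HPi-Hp replicate 2, 3 without HPi-Hp replicate 1 or 3 or HPi-Lp replicate 4, and 5 to 10 otherwise. Against LPi-Lp it was 5 or 6 without LPi-Lp replicate 1, 2 or 3 or HPi-Lp replicate 1 or 4, and 11 or 14 otherwise. The median log2 fold change of all genes tested was within 0.02 of 0 in each comparison.

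Among 14 genes of catecholamine handling, 2 of 12 tested rose in HPi-Hp mice against Sham and none fell. They were Pnmt, which makes adrenaline from noradrenaline (2.67 ± 0.56, edgeR adjusted p = 0.0109), and Pcbd1, of cofactor recycling (1.17 ± 0.39, adjusted p = 0.0451). Pnmt did not follow Dbh: it was 8.24, 6.84, 11.6 and 2.71 FPKM in HPi-Hp mice, highest in replicate 3 where Dbh was 0.0579, and 1.34, 0.527, 0.728 and 0.505 FPKM in HPi-Lp mice. In LPi-Lp mice Pts and Slc22a3 rose, by 1.09 and 1.10 on the log2 scale. Among the most abundant genes of the list, Qdpr and Cyb561 lay between 14.8 and 44.75 FPKM in all 16 mice and were not called in either comparison with Sham.

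Of 10 sympathetic transcription factor genes, 1 of 6 tested was called in HPi-Hp mice, Phox2a, which specifies noradrenergic neurons and had no Sham library over the minimum count, so its fitted 4.26 ± 0.94 is only a description. Phox2a was 0.472, 0.542, 0.306 and 1.88 FPKM in HPi-Hp mice, 25.7, 0.396, 4.46 and 18.7 FPKM in HPi-Lp mice and at most 0.106 in Sham. Hand2 and Gata2, the most abundant of the list, were at 4.94 FPKM or more in each Sham mouse and were not called in HPi-Hp or LPi-Lp mice. In LPi-Lp mice 1 of 6 was called, also with no Sham library over the minimum. Against Sham, 4 of 8 met the call rule in HPi-Lp mice, Phox2a, Hand2 and Hand1 among them.

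Of 15 pan-neuronal genes, 4 of 7 tested were called higher in HPi-Hp mice. Syt1, at 5.66 ± 1.10, had no Sham library over the minimum count and is only described. Tubb3, over the minimum in all 4 libraries of each group, rose by 4.12 ± 0.90 on the log2 scale (edgeR adjusted p = 0.0123). Stmn3 (3.95 ± 0.87) and Gap43 (3.24 ± 0.59) had 1 and 2 Sham libraries over it. They entered mainly through the HPi-Hp mice and are also only described. Tubb3 (3.55 ± 0.88) and Stmn3 (3.32 ± 1.03) were the 2 of 7 called higher in LPi-Lp mice, with 1 Sham library over the minimum count for Stmn3. Tubb3 was 0.387, 2.83, 6.51 and 13.9 FPKM in LPi-Lp, 2.43, 15.3, 0.710 and 17.7 in HPi-Hp and 166, 8.97, 27.7 and 129 FPKM in HPi-Lp mice, the same high mice as for Th. Uchl1, the most abundant, was at 40.3 to 60.0 FPKM in Sham and was not called in any of the comparisons with Sham. In HPi-Lp mice 7 of 9 met the call rule against Sham.

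Of 11 secretory granule and peptide genes, 6 were tested in HPi-Hp mice against Sham, and Cpe fell (-1.43 ± 0.39). Chgb (4.08 ± 0.98) and Scg3 (2.80 ± 0.51) were called higher, with 1 and 2 Sham libraries over the minimum count. They entered mainly through the HPi-Hp mice and are only described. Pcsk1n and Chga, fitted at 5.38 ± 0.82 and 4.89 ± 0.92, were also called but had no Sham library over the minimum count, so they are only described. Cpe, a peptide-processing carboxypeptidase, was at 874 to 940 FPKM in Sham, far above the neuron genes, and at 122 to 206 in HPi-Lp mice. In LPi-Lp mice Pcsk1n, Chgb and Scg3 were called higher and Cpe lower, of 4 tested. Sham libraries over the minimum count numbered 1 for Pcsk1n, 1 for Chgb and 2 for Scg3. Npy was 0.260, 0, 0.532 and 0.0676 FPKM in Sham, 0.295, 1.46, 8.72 and 19.6 in LPi-Lp, 3.11, 58.3, 0.551 and 51.4 in HPi-Hp and 242, 2.31, 27.2 and 203 FPKM in HPi-Lp mice. Every LPi-Lp mouse but replicate 1 and every other mouse after surgery exceeded the highest Sham value of Npy. For HPi-Hp replicate 3, at 0.551 against 0.532 FPKM, the margin was too small to read. In HPi-Lp mice 6 genes were called higher against Sham and Cpe lower, of 7 tested.

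Of 7 ganglionic receptor genes only Chrnb2, a nicotinic receptor subunit, had counts enough to be tested against Sham, and it rose in HPi-Hp (1.13 ± 0.38, edgeR adjusted p = 0.0438) and LPi-Lp mice (1.73 ± 0.36). Chrna3, the ganglionic nicotinic subunit, had no read in any Sham library and reached 10.6 FPKM in HPi-Lp mice. The serotonin receptor genes Htr3a and Htr3b reached 75.0 and 11.4 FPKM in that group and at most 0.0803 and 0.0536 FPKM in Sham.

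Ret, the signalling receptor of the GDNF family, was 0.408, 0.210, 0.242 and 0.396 FPKM in Sham, 0.247, 0.405, 0.305 and 1.02 in LPi-Lp, 0.624, 0.527, 0.473 and 1.38 in HPi-Hp and 7.46, 2.28, 2.53 and 11.7 FPKM in HPi-Lp mice. All 4 HPi-Lp mice lay above the other 12 for Ret, with replicate 2 the lowest of them. Of 15 neurotrophin ligand and receptor genes, 4 of 13 tested were called higher in HPi-Hp mice, 1 of them with no Sham library over the minimum count. Those that rose included Ret (1.26 ± 0.40, edgeR adjusted p = 0.0388) and its partner Gfra3 (1.20 ± 0.34, 0.0264). Ntf3, the neurotrophin NT-3, fell (-1.28 ± 0.26, adjusted p = 0.0105). In LPi-Lp mice Ntrk2, the BDNF receptor, rose by 1.35 ± 0.31 and Ntf3 fell by 1.10 ± 0.26 on the log2 scale, 1 of 12 tested in each direction, a higher count no larger than the 8.79% of all genes would give. In HPi-Lp mice the log2 fold changes against Sham were 4.21 for Ret, 4.12 for its co-receptor Gfra1 and -2.56 for Ntf3, with 4 higher and 3 lower of 12. Gfra1 was 1.63, 4.04, 2.02 and 1.68 FPKM in HPi-Lp mice, highest in replicate 2 like Brinp1, and at most 0.468 in the other 12 mice. Nrtn and Sort1, with Ntf3 the most abundant of the list, were not called in either comparison with Sham of the HPi-Hp or LPi-Lp mice.

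Markers of other cells that could carry these genes were read as summed FPKM. The 4 cholinergic markers Chat, Slc18a3, Slc5a7 and Vip were each under 1 FPKM in all 16 libraries, and of the 8 sensory neuron markers 6 were. The sensory markers summed to 0.595 to 0.927 in Sham and 2.51 to 3.61 in HPi-Lp mice. All 3 tested, Piezo2, Trpv1 and Calca, met the call rule in HPi-Lp mice against Sham, beside 15.0% of all genes, as a description. Their means went from 0.477 to 1.45, from 0.0901 to 0.708 and from 0.0537 to 0.551 FPKM. For the adrenal medulla, the chromaffin list summed to 10.8 to 12.6 FPKM in Sham, 10.8 to 15.7 in LPi-Lp, 20.0 to 24.7 in HPi-Hp and 7.45 to 41.2 in HPi-Lp mice, and its vesicle transporter Slc18a1 was under 1 FPKM throughout. The chromaffin list shares Chga and Chgb with the granule list. Its Sham sums were mostly Penk, at a mean of 10.6 FPKM in Sham and 8.92 in HPi-Lp mice. From Sham to HPi-Lp mice the means of Chga and Chgb went from 0.0524 to 5.48 and from 0.120 to 9.07 FPKM. That of Pnmt was lower, at 1.13 in Sham and 0.776 in HPi-Lp mice. Adrenal cortex markers summed to 1.10 to 1.68 in Sham and 2.22 to 6.68 in HPi-Lp mice. Cyp11b1 and Cyp11b2, the last enzymes of corticosterone and aldosterone synthesis, were at 0 in every library. Of 3 cortex markers tested, Cyp11a1 and Mc2r met the call rule in HPi-Lp mice against Sham, beside 15.0% of all genes. These calls are a description, since no Sham library held over 7 counts of either. Their means went from 0.0397 to 0.411 and from 0.0468 to 1.56 FPKM. Cyp21a1 had a mean of 0.137 FPKM in HPi-Lp mice and 0 in the other groups. All 5 kidney tubule markers were under 1 FPKM in all 16 mice.

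Glia and exocrine pancreas varied among the HPi-Lp mice. The glial markers summed to 182, 21.3, 33.5 and 53.8 FPKM in HPi-Lp replicates 1 to 4, highest and lowest in the same mice as Prph. Pancreas acinar markers summed to 12.9, 1.24, 7.61 and 94.1 FPKM in those mice and to at most 2.16 in the other 12. The part of glial, pancreatic, adipose or adrenal tissue in the neuron gene levels was not tested.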

How the data were processed

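Total RNA of 16 mouse aortas was poly-A selected and sequenced. Per the published methods and the submitters' processing notes, the authors aligned reads to mm10 with HISAT2, counted them per gene with featureCounts (1.5.0-p3) and computed FPKM, so the deposited tables hold raw counts and FPKM; whether strand was used in counting is not given in the sources used here. Ddc overlaps the antisense gene 1700042O10Rik (at most 19 counts) and Slc18a2 overlaps Gm29261 (0 counts). Counts totalled 13659525 to 57276915 per library, and no pair of libraries in a group held near-identical counts. Levels are deposited FPKM; limits given for counts of 0 use 3 counts.

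Each pair of groups (4 against 4) was fitted on the counts with edgeR 4.0.16 (TMM, filterByExpr, quasi-likelihood test, Benjamini-Hochberg over all tested genes) in R 4.3.3. Calls needed an adjusted p no larger than 0.05 together with a 2-fold change or more. p-values are given only for comparisons without the 5/6 Nx-HPi-Lp mice. Alternatives were DESeq2 1.42.0, RLE scaling, a replicate block, a joint fit over all 16 libraries, no count filter or a minimum of 10 counts per library, no fold threshold, limma 3.58.1 on log2 FPKM with 1 or 0.1 added (mean FPKM above 0.5), and leaving out each library. The fits were tested on simulated data. Likeness to the 8 genes and marker sums were computed in Python 3.11.15. The 8 genes and all lists were chosen with earlier results of these data known. Named from each list were the 3 genes of highest mean FPKM and every gene called in a comparison without the 5/6 Nx-HPi-Lp mice; others were named after their values were seen. Replicate numbers did not pair mice across groups: same-numbered libraries correlated over 0.1 in 4 of 24 pairs. Promoters came from RefSeq (GRCm38.p6), with 7 of the 8 genes matched. Some genes that the rule would name are not reported here.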

Additional observations from a re-analysis of the deposited data

Results flagged for a closer look

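Th in Sham replicate 1, at 0.1555 FPKM, stood far from the other 3 Sham mice (gap of 0.883 of the group's range). It rests on 10 counts, and of 32 groups of 4 tested in this way chance alone would place about 1 in 20 so far apart.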

How the results depend on the processing

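The counts of members called changed with the processing as follows; depth limits Th, Dbh and Brinp1, which held 11, 10 and 10 counts over all Sham libraries. In HPi-Hp against Sham (6 called), requiring at least 10 counts in every library and limma on log2(FPKM + 1) each gave 3, and leaving out a library gave 6 to 7. In LPi-Lp against Sham (4 called), no filter gave 7, the 10-count minimum 1, the replicate block 1, all 16 libraries and both limma scales 0, and leaving out a library 0 to 6. In HPi-Lp against Sham (6 called), the 10-count minimum gave 3 and leaving out a library 6 to 8. In HPi-Lp against HPi-Hp (1 called), DESeq2 gave 2, no filter 4, the 10-count minimum 0, all 16 libraries 3 and leaving out a library 1 to 5. In HPi-Lp against LPi-Lp (3 called), DESeq2 and no filter gave 5, the 10-count minimum 1, all 16 libraries 6, both limma scales 1, the replicate block 2 and leaving out a library 1 to 5. No alternative called a member in HPi-Hp against LPi-Lp, where leaving out HPi-Hp replicate 4 turned Th to -0.33 and Dbh to -0.13 on the log2 scale and leaving out LPi-Lp replicate 4 gave their highest values, 1.75 and 2.19. The replicate numbers do not pair mice, so the block is only an alternative. Fewer genes are tested under the stricter minimum, and the cause of the other changes was not tested. Higher calls over the 72 listed neuronal genes, an alternative added after seeing the data, ran 7 to 30 in HPi-Hp and 0 to 25 in LPi-Lp against Sham, and 12 to 43, 3 to 12 and 6 to 25 in the HPi-Lp comparisons with Sham, HPi-Hp and LPi-Lp.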

Other observations

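The receptors through which the vessel wall and its fat sense noradrenaline and neuropeptide Y moved in both directions. Of 10 such genes tested in HPi-Hp mice against Sham, 4 were called higher and 2 lower, beside 9.41% and 2.75% of all genes. Adrb3 (2.73 ± 0.58) and Adra1a (1.51 ± 0.51) were among those that rose, and Npy1r (-1.42 ± 0.38) and Adra1d (-1.26 ± 0.41) fell, in edgeR log2 fold changes ± SE. Adra2b, fitted at 2.91 ± 0.69, had no Sham library over the minimum count, was tested only through the HPi-Hp mice and is a description. In LPi-Lp mice 4 of 9 tested rose, among them Adra1a, Adrb1 and Adrb3, and none fell, beside 8.79% and 2.08% of all genes. Adra1d, an adrenergic receptor of arterial smooth muscle, was at 31.7 to 51.9 FPKM in Sham, 12.3 to 28.1 in LPi-Lp, 5.71 to 29.2 in HPi-Hp and 3.03 to 9.06 in HPi-Lp mice. Adrb3, the beta receptor of adipocytes, was at 4.77 to 8.85 FPKM in Sham, 12.3 to 27.9 in LPi-Lp, 11.4 to 104 in HPi-Hp and 7.66 to 14.4 in HPi-Lp mice. The smooth muscle and adipocyte marker sums also differed between these groups, and their part in the receptor values was not tested.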
